A study of Drosophila melanogaster with 23 samples.

Results

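Boundaries between topologically associating domains (TADs) were compared between early *Drosophila melanogaster* embryos and S2 cells, and the boundaries called in the control map of only 1 of these cell sources are described here. They were chosen on chromosome arms 2L, 3L, 3R and X outside the pericentromeric regions. At each 10-kb bin, insulation was the log2 of the mean balanced contact in a 100-kb diamond, that is between the 10 bins before and the 10 bins after, over the mean of the arm. A boundary was a local minimum of insulation with a prominence of 0.2 or more, where prominence is the rise in log2 units that separates a minimum from a lower one. Of 604 boundaries in the control embryo map, 105 (17.4%) had no S2 control boundary within 30 kb and are called embryo-only. Of 747 boundaries in the S2 control map, 231 (30.9%) had no control embryo boundary within 30 kb and are called S2-only. The 336 members were thus picked by the values of the control embryo and S2 control maps, and the values of those maps at the members are given as a description.

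The study asked what heterochromatin protein 1 (HP1), which binds histone H3 methylated at lysine 9, does for genome folding when the zygotic genome is switched on, and measured it by Hi-C. In Hi-C, crosslinked chromatin is cut (here with DpnII, at GATC) and ligated, and the joined pairs of DNA ends count how often segments lie together. There were 23 libraries in 7 groups, and the authors pooled them into 1 contact map per group. Embryos were sorted by hand at stage 5 from control mothers (Bloomington 36303, 7 libraries). HP1-KD embryos (5 libraries) came from mothers in which a Gal4 driver active in the female germ line (Bloomington 7063) expressed a short hairpin RNA against HP1 (Bloomington 33400), a knockdown the study describes as partial. The labels do not make clear whether control embryos carried this driver, so it is not known whether HP1-KD and control differ in the driver too. HP1-rescue embryos (3 libraries) carried the same knockdown together with a Flag- and HA-tagged HP1 transgene (pUASP::Flag-HA-HP1) made resistant to the hairpin. H3K9M embryos (2 libraries) expressed histone H3.3 with lysine 9 replaced by methionine from pUASP::H3.3K9M with the same driver. S2 cells, an established line derived from late *Drosophila* embryos, received double-stranded RNA against GST (S2 control), copied from a plasmid vector, or 1 of 2 double-stranded RNAs against HP1 (S2 dsRNA 1 and S2 dsRNA 2), with 2 libraries each.

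TADs are stretches of chromosome within which contacts are frequent, and a boundary is the place where contacts between both sides drop. In *Drosophila*, boundaries tend to lie at active, gene-dense chromatin, where gene starts and binding sites of insulator proteins such as BEAF-32, CTCF and Su(Hw) are common. They become visible around zygotic genome activation, when the pioneer factor Zelda opens many regulatory regions, and S2 cells are a cultured line with properties of blood cells.

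Because each group was pooled, replicate error is lacking throughout and no test between groups was possible. Depth at a boundary was the mean insulation 100 kb to either side minus insulation at the boundary bin, in log2 units. It is given with its counting error (SE) for single boundaries and with the range over the 4 arms for sets, and the arms are not replicates. The maps held between 24441214 (S2 control) and 220559641 (control) whole contacts on the 4 arm parts, and 9563 bins had contacts in all 7 maps. Depth could be computed for 101 of 105 embryo-only and 224 of 231 S2-only members, since the others lie too close to an end or a gap.

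The reference sequence around short motif matches in 7 member bins is shown to make the regions concrete, with the match in capitals and the flanks in lower case (RefSeq sequence, dm6 coordinates, 5′ to 3′ on the strand named). The motifs are the Zelda motif CAGGTAG and the Dref motif TATCGATA, each searched on both strands. The Dref motif holds CGATA, the BEAF-32 motif, on both of its strands, so these matches are shared. A bin of 10 kb is far wider than a motif, so the data do not say which bases of a bin go with its insulation. The embryo-only examples come first, and the RpS7 and CHES-1-like boundaries are S2-only.
CG3434 boundary, chr3L:9461734-9461860 (minus strand): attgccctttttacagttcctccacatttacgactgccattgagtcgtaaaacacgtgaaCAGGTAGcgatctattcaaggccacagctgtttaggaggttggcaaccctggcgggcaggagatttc
opa boundary, chr3R:4854311-4854437 (minus strand): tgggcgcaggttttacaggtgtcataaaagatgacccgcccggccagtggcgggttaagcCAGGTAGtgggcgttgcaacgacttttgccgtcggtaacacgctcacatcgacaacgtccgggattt
Brd and Ocho boundary, chr3L:14972045-14972171 (minus strand): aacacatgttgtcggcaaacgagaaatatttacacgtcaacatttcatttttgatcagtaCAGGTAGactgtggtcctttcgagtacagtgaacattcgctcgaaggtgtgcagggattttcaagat
ed boundary, chr2L:4034574-4034700 (minus strand): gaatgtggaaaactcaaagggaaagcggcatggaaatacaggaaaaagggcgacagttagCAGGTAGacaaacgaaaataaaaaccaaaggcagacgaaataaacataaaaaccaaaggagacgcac
Atg17 boundary, chr3R:5670985-5671112 (plus strand): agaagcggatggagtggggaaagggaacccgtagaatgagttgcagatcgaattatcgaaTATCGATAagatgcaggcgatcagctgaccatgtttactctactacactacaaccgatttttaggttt
RpS7 boundary, chr3R:30209299-30209426 (plus strand): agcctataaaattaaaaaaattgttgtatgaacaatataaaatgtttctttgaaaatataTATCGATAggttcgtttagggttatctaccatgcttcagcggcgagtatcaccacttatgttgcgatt
CHES-1-like boundary, chrX:7691690-7691816 (minus strand): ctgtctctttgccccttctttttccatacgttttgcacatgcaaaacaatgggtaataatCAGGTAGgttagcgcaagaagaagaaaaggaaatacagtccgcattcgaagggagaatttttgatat

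The Zelda motif was present in 53.3% of embryo-only bins, 49.4% of S2-only bins and 40.0% of all usable bins, with means of 0.981, 0.684 and 0.558 matches per bin. The Dref motif was in 27.6%, 26.8% and 21.3% of the bins of these groups. Zelda matches were thus most frequent in embryo-only bins. At boundaries shared by both sources they were in 49.1% of bins (embryo positions) and 47.1% (S2 positions), close to S2-only bins. Both sets had almost the same share of bins with a Dref match. Boundaries shared by both sources held more Dref matches than either set, in 39.7% of bins at their embryo positions and 38.4% at their S2 positions.

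The largest embryo-only boundaries lay beside genes of quite different roles. The most prominent was at chr3L:9460001-9470000, where CG3434 and CG44838 start. Its prominence in control was 2.84, and its depth was 1.40 ± 0.02 (control), 0.76 ± 0.02 (HP1-KD), 1.12 ± 0.04 (HP1-rescue) and 1.09 ± 0.04 (H3K9M). It was called in all 4 embryo maps and in no S2 map, although contacts across the same bin were also reduced in S2 cells, with depths of 0.67 ± 0.05 (S2 control), 0.63 ± 0.04 (S2 dsRNA 1) and 0.66 ± 0.04 (S2 dsRNA 2). The nearest S2 control boundary was 40 kb away.

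The boundary within pbl, which encodes the RhoGEF Pebble needed for cytokinesis, had no such depth in S2 cells (chr3L:7900001-7910000). Depth was 1.47 ± 0.02 (control), 0.86 ± 0.02 (HP1-KD), 1.11 ± 0.04 (HP1-rescue) and 1.41 ± 0.04 (H3K9M). In S2 cells it was 0.08 ± 0.06 (S2 control), -0.0013 ± 0.05 (S2 dsRNA 1) and 0.04 ± 0.05 (S2 dsRNA 2), within 2 SE of 0 in each. All embryo maps were thus well above all S2 maps here. At the boundary in Atg17, an autophagy gene (chr3R:5670001-5680000), depth was 0.83 (control), 0.41 (HP1-KD), 0.62 (HP1-rescue) and 0.61 (H3K9M) in embryos and 0.30, 0.21 and 0.30 in the S2 maps, in the order S2 control, S2 dsRNA 1 and S2 dsRNA 2 used from here on. Embryo maps are given in the order control, HP1-KD, HP1-rescue and H3K9M. The one at Abcd3, which encodes a peroxisomal transporter (chrX:19750001-19760000), had 0.56, 0.35, 0.61 and 0.58 in embryos and 0.32, 0.36 and 0.53 in S2 cells, so the ranges of both sources overlapped.

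Among the 6 most prominent embryo-only boundaries, the one at Abcd3 was called in S2 dsRNA 2 but not in S2 dsRNA 1. Another 2 were called in both HP1 dsRNA maps, so that their name holds only against the S2 control map. The first lay at Sk2, scramb2 and Prx4 (chr3L:3040001-3050000), which encode a sphingosine kinase, a phospholipid scramblase and a peroxiredoxin. Its depth was 1.25 ± 0.03 (control), 0.79 ± 0.03 (HP1-KD), 1.20 ± 0.06 (HP1-rescue) and 1.17 ± 0.06 (H3K9M), against 1.04 ± 0.08 (S2 control), 1.08 ± 0.07 (S2 dsRNA 1) and 1.15 ± 0.07 (S2 dsRNA 2). HP1-KD was the lowest of the 7 maps, and the S2 maps lay close to the other embryo maps. The second lay in the Bearded gene complex at Brd, CG3349 and Ocho (chr3L:14970001-14980000), where small proteins of the Bearded family inhibit Notch signalling. Its depth was 1.27, 0.76, 1.06 and 1.13 in embryos and 0.29, 0.37 and 0.46 in S2 cells, so all embryo maps were above all S2 maps.

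**Figure D1:**
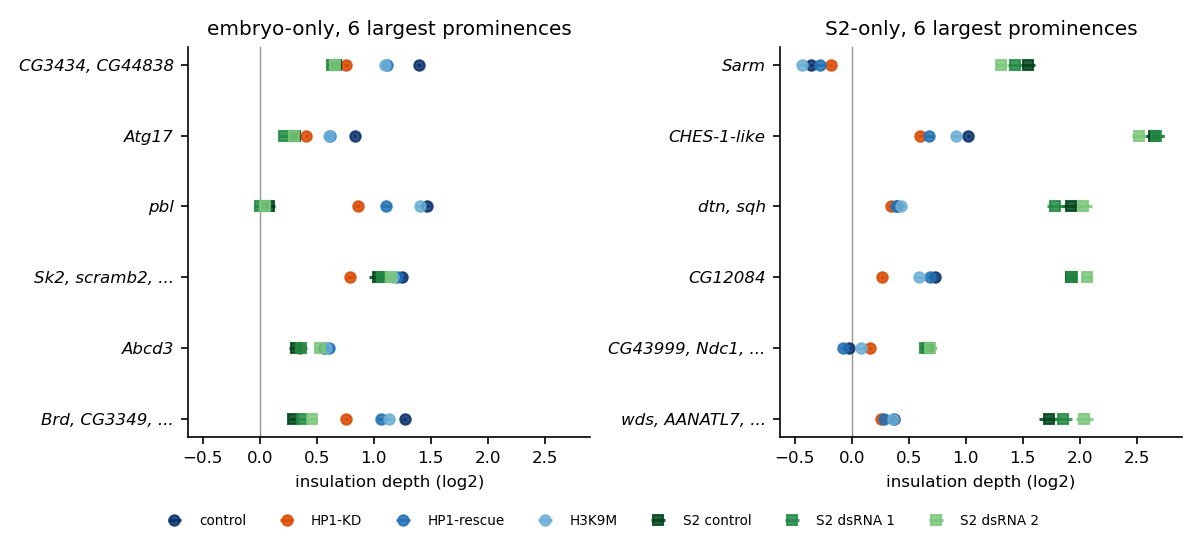
Insulation depth (x axis, log2) in the 7 pooled maps at the 6 embryo-only (left) and 6 S2-only (right) boundaries of largest prominence, named by the genes that start in or overlap the bin. Circles are embryo maps, squares are S2 maps and bars are 1 counting SE; at pbl the S2 squares lie near 0, and at CHES-1-like they lie above 2.

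In S2 control 5 of the 6 most prominent S2-only boundaries had a depth of 1.54 or more, while the 6 most prominent embryo-only ones reached at most 1.47 in control. The first, at chr3L:8070001-8080000 within Sarm, which encodes a TIR-domain protein of axon degeneration, had a prominence of 3.65 in S2 control. Depth was 1.54 ± 0.06 (S2 control), 1.43 ± 0.05 (S2 dsRNA 1) and 1.31 ± 0.05 (S2 dsRNA 2). In embryos it was below 0, with -0.36 ± 0.01 (control), -0.19 ± 0.02 (HP1-KD), -0.28 ± 0.03 (HP1-rescue) and -0.44 ± 0.03 (H3K9M), so the bin was better connected across than its flanks. The nearest control embryo boundary was 100 kb away. Contacts per bin stepped across this bin in both sources, by a log2 value of 1.75 in control and 1.38 in S2 control, and the part of the step in the result was not tested.

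The boundary in CHES-1-like, which encodes a forkhead transcription factor (chrX:7690001-7700000), had the largest S2 depths of these 6. They were 2.66 ± 0.08 (S2 control), 2.67 ± 0.07 (S2 dsRNA 1) and 2.52 ± 0.06 (S2 dsRNA 2), and in embryos 1.02 ± 0.01 (control), 0.60 ± 0.02 (HP1-KD), 0.68 ± 0.03 (HP1-rescue) and 0.91 ± 0.03 (H3K9M). All S2 maps exceeded all embryo maps, in which the bin still had positive depth but no boundary within 30 kb. Contacts in this bin were only 0.366 of the median bin in control and 0.362 in S2 control.

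The other 4 of the 6 lay at gene starts. At sqh, the regulatory light chain of non-muscle myosin, and dtn (chrX:6220001-6230000), depth was 1.92, 1.79 and 2.03 in the S2 maps and 0.40, 0.34, 0.39 and 0.43 in the embryo maps. At CG12084 (chr3L:1490001-1500000) it was 1.92, 1.93 and 2.06 in S2 cells and 0.73, 0.27, 0.69 and 0.59 in embryos. At wds, the fly WDR5 gene, with egh and Vha36-3 (chrX:2580001-2590000), it was 1.73, 1.85 and 2.04 in S2 cells and 0.37, 0.25, 0.28 and 0.36 in embryos. In each of these the S2 range lay more than 1 log2 unit above the embryo range. At the bin where 7 genes start, among them the nucleoporin gene Ndc1 (chr3R:23920001-23930000), depth was 0.67, 0.65 and 0.68 in S2 cells and -0.02, 0.16, -0.07 and 0.08 in embryos, and this bin was also called in HP1-KD.

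**Figure D2:**
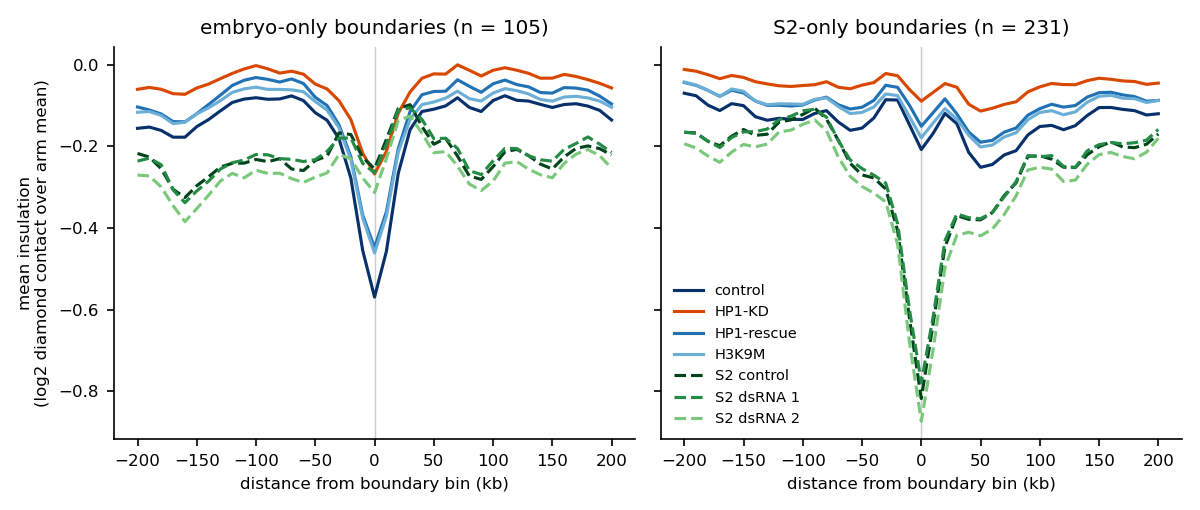
Mean insulation (y axis, log2 of diamond contact over the arm mean) from 200 kb before to 200 kb after the boundary bin, for the 105 embryo-only (left) and 231 S2-only (right) members in each of the 7 pooled maps. At embryo-only boundaries the minimum is -0.57 in control and -0.27 in HP1-KD, and the 3 S2 maps are between -0.31 and -0.25 at the boundary bin. At S2-only boundaries the 3 S2 maps fall to between -0.78 and -0.87 while the embryo maps stay between -0.21 and -0.09.

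Embryo-only boundaries were mostly found again in the other embryo maps, which did not choose them. A boundary lay within 30 kb of 93 of the 105 (88.6%) in H3K9M, 86 (81.9%) in HP1-rescue and 64 (61.0%) in HP1-KD. Over all usable bins, 40.6% had a boundary that near in H3K9M, 39.6% in HP1-rescue and 33.3% in HP1-KD. Since any bin so far from S2 boundaries is less often near a boundary, the share over bins with no S2 control boundary within 30 kb is the closer background, and it was 18.3%, 17% and 13.3%. In the S2 maps treated with HP1 dsRNA, 18 (17.1%) and 27 (25.7%) of the embryo-only boundaries had a boundary within 30 kb, against 7.84% and 8.74% of bins with no S2 control boundary within 30 kb and 51% and 52.5% of all bins.

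S2-only boundaries were also mostly found again in the other S2 maps. A boundary lay within 30 kb of 202 of the 231 (87.4%) in S2 dsRNA 1 and of 215 (93.1%) with dsRNA 2, against 30.7% and 31.8% of bins with no control embryo boundary within 30 kb. In HP1-KD, HP1-rescue and H3K9M embryos it was 20 (8.66%), 14 (6.06%) and 17 (7.36%), against 4.16%, 3.53% and 4.16% of those bins. The names thus hold for most but not all members: 31 embryo-only boundaries were called in at least 1 HP1 dsRNA map and 30 S2-only boundaries in at least 1 of HP1-KD, HP1-rescue and H3K9M.

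Called in all 4 embryo maps and in no S2 map were 37 embryo-only members (35.2%, against 3.45% of 9473 bins with insulation in all maps), and 174 S2-only members were called in all 3 S2 maps and in no embryo map (75.3%, against 12.7%). The control maps are among these maps, so part of both shares follows from the rule, and the sources differ in the number of maps. All 4 embryo maps called 62 embryo-only members (59.0%), against 73.5% of shared boundaries at their embryo positions and 29.4% of bins. All 3 S2 maps called 200 S2-only members (86.6%), against 95.0% of shared boundaries at their S2 positions and 46.1% of bins. Members of 1 source were thus called throughout their own source less often than shared boundaries, which were also the more prominent. Median prominence was 0.493 at embryo-only against 0.897 at shared boundaries (embryo positions), and 0.498 at S2-only against 0.942 (S2 positions). Only their own control map, among the maps of the same source, called 7 embryo-only and 14 S2-only members. For shared boundaries these were 22 of 499 at embryo positions and 6 of 516 at S2 positions.

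Recovery was lowest for the members of least prominence, which is a value of the choosing map and is given as a description. Of the 43 embryo-only members with a prominence under 0.4, 32 were called in H3K9M, 27 in HP1-rescue and 14 in HP1-KD. Of the 35 from 0.4 to 1 these were 35, 34 and 27, and of the 27 over 1 they were 26, 25 and 23. Of the 90 S2-only members under 0.4, S2 dsRNA 1 called 69 and S2 dsRNA 2 called 77. Of the 77 from 0.4 to 1 they called 72 and 76, and of the 64 over 1 they called 61 and 62. The upper classes differed little from each other in either set. Recovery was likewise lowest under 0.4 at shared boundaries. At embryo positions 67, 62 and 27 of 103 in this class were called in H3K9M, HP1-rescue and HP1-KD. At S2 positions 95 and 100 of 110 were called in S2 dsRNA 1 and S2 dsRNA 2. Over 1 these were 218, 222 and 212 of 224, and 247 and 248 of 250.

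**Figure D3:**
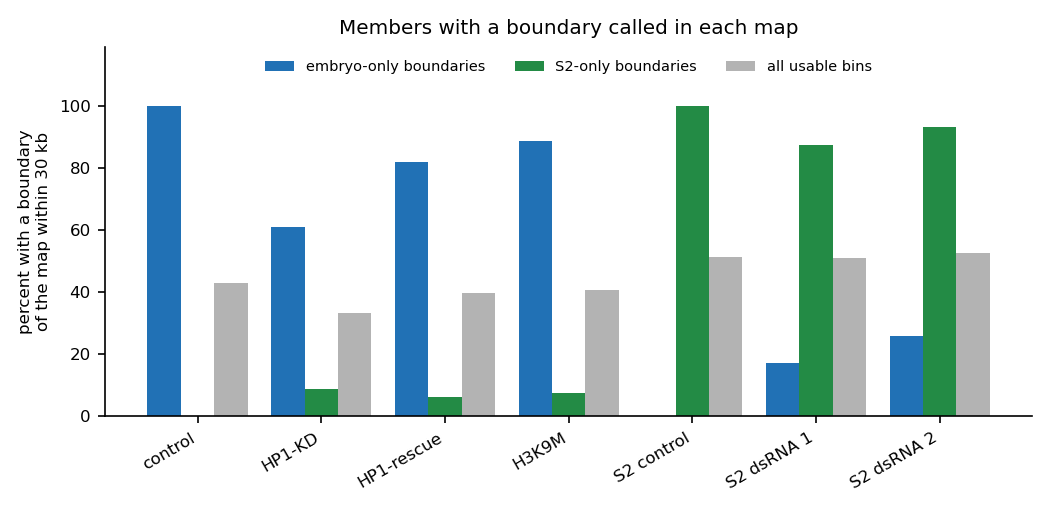
Percent of embryo-only (blue) and S2-only (green) members, and of all usable bins (grey), that had a boundary of each map within 30 kb (y axis). The 100% and 0% bars of the control and S2 control maps follow from the rule; 42.9% of all bins had a control boundary that near and 51.1% an S2 control boundary, and in the other maps 61.0% to 88.6% of embryo-only members were called in embryos and 17.1% to 25.7% in S2 cells.

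Insulation at embryo-only boundaries was shallower in HP1-KD than in the 2 other manipulated embryo groups. Mean depth over 101 members was 0.40 in H3K9M (range over arms 0.37 to 0.45), 0.41 in HP1-rescue (0.38 to 0.45) and 0.27 in HP1-KD (0.22 to 0.30), so the arm ranges of HP1-KD did not overlap those of the others. HP1-KD minus HP1-rescue was -0.15 on average (-0.16 to -0.14 over arms) and lower at 83 of 101 members. HP1-KD minus H3K9M was -0.14 (-0.16 to -0.08) and lower at 75 of 101. HP1-rescue minus H3K9M was 0.01 (-0.02 to 0.06), with 51 members lower and 50 higher. Without balancing both differences of HP1-KD shrank, to -0.04 against HP1-rescue and -0.02 against H3K9M, and with observed over expected contact they were -0.22 and -0.23.

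A loss of 0.2 or more in depth was found at 37 of 101 embryo-only members against HP1-rescue (36.6%, with 52% over all 596 control embryo boundaries with a depth and 17.3% over all bins) and at 41 against H3K9M (40.6%, with 56.4% and 19.4%). A gain of that size was found at 4 (3.96%, with 2.18% of those boundaries and 16.8% of bins) and 5 (4.95%, with 1.85% and 19.3%). HP1-rescue was below H3K9M by 0.2 or more at 5 members (4.95%, with 5.87% of boundaries and 3.28% of bins) and above it at 7 (6.93%, with 3.52% and 3.14%). At this fixed cut of 0.2, embryo-only members thus had a smaller share of losses in HP1-KD, and a larger share of the few gains, than the boundaries of the control embryo map as a whole. At the 495 shared boundaries with a depth, the mean was 0.69 in H3K9M, 0.68 in HP1-rescue and 0.45 in HP1-KD, with differences of -0.23 between HP1-KD and HP1-rescue and -0.25 between HP1-KD and H3K9M. In proportion the sets were alike. Mean depth in HP1-KD was 0.641 of that in HP1-rescue at embryo-only and 0.659 at shared boundaries. Against H3K9M it was 0.657 and 0.642. In the control map, which chose the boundaries, mean depth was 0.49 at embryo-only and 0.84 at shared boundaries, and HP1-KD lay below control at 80 of 101 embryo-only members, by 0.2 or more at 57 (56.4%, against 72.5% of all control embryo boundaries with a depth and 26.9% of bins) and above it by that size at 6 (2.52% and 28%).

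**Figure D4:**
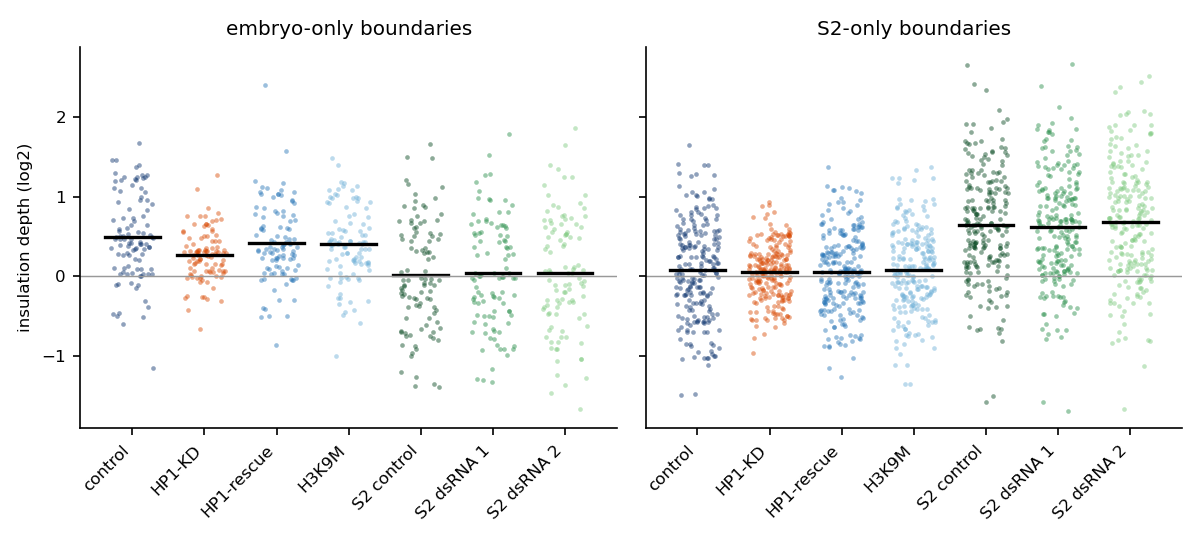
Insulation depth (y axis, log2) of every embryo-only (left, 101 with a value) and S2-only (right, 224 with a value) boundary in the 7 pooled maps. Points are single boundaries, spread sideways at random, and black lines are means; at embryo-only boundaries the mean falls from 0.49 in control to 0.27 in HP1-KD and lies at 0.02 to 0.04 in the S2 maps, and at S2-only boundaries it is 0.62 to 0.68 in S2 cells and 0.05 to 0.08 in embryos.

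The embryo-only members furthest below the mean of HP1-rescue and H3K9M in HP1-KD lay at genes of different roles or at no gene. They were ranked by this difference in depth, among the 67 members whose mean depth in these 3 maps was 0.2 or more. Such a difference can be large where depth itself is large, and loss in proportion to depth was not ranked. The lowest was chr2L:9450001-9460000 within numb, an inhibitor of Notch signalling that marks daughter cell fates. Its depth was 1.38 ± 0.02 (control), 0.51 ± 0.02 (HP1-KD), 1.06 ± 0.04 (HP1-rescue) and 1.08 ± 0.04 (H3K9M), and 0.36, 0.44 and 0.56 in the S2 maps. HP1-KD was the lowest of the 4 embryo maps, and the boundary was called in S2 dsRNA 2 as well as in all 4. The boundary at the start of ed, which encodes the cell adhesion protein Echinoid (chr2L:4030001-4040000), was at 1.30 ± 0.02 (control), 0.65 ± 0.02 (HP1-KD), 1.17 ± 0.05 (HP1-rescue) and 1.02 ± 0.04 (H3K9M), and at -0.29, -0.23 and -0.16 in the S2 maps, and the next S2 control boundary was 160 kb away. All embryo maps were above 0 there and all S2 maps below it, although S2 dsRNA 2 had a boundary within 30 kb.

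The boundary at Tfb4, Vps29, capt and Tango14 (chr2L:1150001-1160000) was the one of this group that HP1-KD did not call. These include genes of a TFIIH subunit (Tfb4), of the retromer (Vps29) and of the actin regulator Capulet (capt). Depth was 1.21 ± 0.01 (control), 0.51 ± 0.01 (HP1-KD), 1.04 ± 0.03 (HP1-rescue) and 0.93 ± 0.03 (H3K9M), and 1.21, 1.18 and 1.35 in the S2 maps. HP1-KD was the lowest map, and S2 cells had about the depth of control embryos. The fourth, chrX:21790001-21800000, held no gene and few contacts (0.0589 of the median bin in control), with SEs from 0.18 to 0.36, and its values are not read further. The study describes an inversion on 2L in HP1-KD and HP1-rescue embryos, and 3 of these 4 members lie on arm 2L. Its part in these values was not tested. Without arm 2L the mean of HP1-KD minus HP1-rescue over embryo-only members was -0.15 and that of HP1-KD minus H3K9M was -0.13.

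Of the 3 members with the highest HP1-KD depth relative to HP1-rescue and H3K9M among the same 67, 1 (chrX:21930001-21940000) again had large counting errors, with SEs from 0.22 to 0.43. The boundary at CG1421 and CG1428 (chr2L:21900001-21910000) had depths of 0.27, 0.33, 0.23 and 0.24 in embryos and of -0.25, -0.26 and -0.30 in S2 cells. The boundary at l(1)sc in the achaete-scute complex, whose proneural transcription factors specify neural precursors (chrX:400001-410000), had 0.03, 0.33, 0.41 and 0.17 in embryos and -1.01, -0.92 and -1.28 in S2 cells. Embryo maps were above S2 maps in depth at both. The calls were less clear, as the CG1421 boundary was called in S2 dsRNA 1 and the l(1)sc boundary in neither HP1-KD nor HP1-rescue.

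S2-only boundaries showed little depth in embryos. Mean depth over 224 members was 0.08 in H3K9M (0.02 to 0.13 over arms), 0.06 in HP1-rescue (-0.003 to 0.11) and 0.05 in HP1-KD (0.003 to 0.09), and HP1-KD minus HP1-rescue was lower at 110 and higher at 114. Embryo-only boundaries likewise had a mean near 0 in S2 dsRNA 1 (0.04, -0.12 to 0.22) and S2 dsRNA 2 (0.04, -0.10 to 0.21), with 53 and 50 of 101 below 0. Mean insulation still dipped locally at embryo-only bins in these 2 maps. It was -0.26 and -0.31 there, against -0.18 and -0.22 at 30 kb before and -0.11 and -0.13 at 30 kb after. At 100 kb, where depth takes its flanks, it was -0.22 and -0.26 before and -0.24 and -0.29 after. The sign of the small mean depths was not stable: with a 50-kb window in place of 30 kb the mean of both HP1 dsRNA maps at embryo-only members was -0.33 and that of the 3 embryo maps at S2-only members -0.14, and without arm X the first was -0.01. A depth of 0.2 or more in S2 dsRNA 1 was found at 42.6% of embryo-only members and 40.9% of all bins, and in S2 dsRNA 2 at 40.6% and 41.7%. For S2-only members this was 42.9% against 37.4% of bins in H3K9M, 39.7% against 36.4% in HP1-rescue and 34.8% against 31.8% in HP1-KD. In the other source the members were thus near the share of all bins by this measure. Of all bins, however, 51.1% lay within 30 kb of an S2 control boundary and 42.9% within 30 kb of a control embryo boundary. The rule bars embryo-only members from the former and S2-only members from the latter. The shares over bins beyond the window are not given for depth, so no matched background stands beside these values.

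Depth was 0.2 or more in HP1-KD, HP1-rescue and H3K9M and below 0 in both HP1 dsRNA maps at 19 of 101 embryo-only members (18.8%), against 2.73% of all bins. The converse, 0.2 or more in both HP1 dsRNA maps and below 0 in the 3 embryo maps, held at 39 of 224 S2-only members (17.4%), against 4.21% of all bins. A depth of 0.2 or more in all 5 of these maps was more frequent, at 31 embryo-only (30.7%) and 72 S2-only members (32.1%), against 24.9% of all bins. Members were chosen as minima of their own control map and away from boundaries of the other control map. The background of all bins carries neither condition, so part of these differences from it can follow from the rule. The size of that part was not tested, and no matched background is given.

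In S2 cells, S2-only boundaries had mean depths of 0.65 in S2 control, 0.62 in S2 dsRNA 1 and 0.68 in S2 dsRNA 2. S2 dsRNA 2 minus S2 dsRNA 1 was 0.06 (0.04 to 0.08 over arms) and higher at 162 of 224 members, by 0.2 or more at 21 (9.38%, against 12.7% of all 733 S2 control boundaries with a depth and 4.51% of bins), and lower by that size at 0 (against 0.409% and 3.82%). At the 509 boundaries shared by both sources the same difference was 0.08. At S2-only members it was 0.03 with a 50-kb diamond and 0.03 without balancing.

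The S2-only members furthest apart between both dsRNA maps were ranked among the 159 whose mean depth in these maps was 0.2 or more. The lowest values of S2 dsRNA 2 minus S2 dsRNA 1 among them were at CHES-1-like, at ush and at Sarm. At ush, which encodes a partner of GATA factors in blood and dorsal cells (chr2L:480001-490000), depth was 0.95 ± 0.04 (S2 control), 1.08 ± 0.04 (S2 dsRNA 1) and 0.93 ± 0.04 (S2 dsRNA 2), and 0.02, -0.01, -0.04 and -0.05 in embryos. This boundary was called in all S2 maps and in no embryo map. The highest value of the 159 was at PNPase and Gprk2 (chr3R:31400001-31410000), with 1.58, 1.49 and 1.91 in the S2 maps and 0.47, 0.24, 0.36 and 0.35 in embryos. The proteasome gene Rpt6 (chrX:21310001-21320000) followed, with 1.21, 1.05 and 1.40 against 1.01, 0.56, 0.84 and 0.89, and ebo (chrX:470001-480000), with 1.46, 1.04 and 1.39 against 0.58, 0.32, 0.58 and 0.43. In each of these S2 dsRNA 1 was the lowest of the S2 maps, and it did not call the boundaries at PNPase and Rpt6.

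Of 45 early zygotic patterning genes on usable bins, 5 (opa, hkb, Doc3, Ubx and sc) start in or next to an embryo-only bin, which is 11.1% against 4.75% of all 10742 protein-coding genes, and 1 (ush) starts next to an S2-only bin, 2.22% against 9.92%. The boundary at opa, a pair-rule gene (chr3R:4850001-4860000), had a prominence of 0.72 and depths of 0.37, 0.16, 0.37 and 0.28 in embryos against -0.88, -0.91 and -1.07 in S2 cells. It was called in all embryo maps and in no S2 map. The bin next to hkb, a terminal gap gene (chr3R:4330001-4340000), was called in the same maps but lies close to the border at 4.2 Mb and has no depth.

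The boundary next to Doc3, a T-box gene of the amnioserosa (chr3L:8990001-9000000), holds the start of smg, whose product clears maternal mRNA. Its depth was 1.20, 0.64, 1.03 and 0.93 in the embryo maps and 0.76, 0.65 and 0.71 in the S2 maps. The boundary next to the Hox gene Ubx (chr3R:16740001-16750000) had a prominence of 0.207, depths below 0 in all 7 maps and no call beyond the control map, and the boundary next to sc is the l(1)sc bin above. Of these 5, the boundaries at opa, hkb and Doc3 were called in all 4 embryo maps. With so few genes these counts are a description, and no test was made.

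Of 21 genes of blood cells and immunity, 4 were at shared boundaries (19.0%, against 26.5% of all genes at embryo positions). At an embryo-only bin there were 0, against 4.75% of all genes. At an S2-only bin there was 1 (4.76%, against 9.92%), drpr, which encodes the phagocytosis receptor Draper. That boundary (chr3L:1720001-1730000) had a prominence of 0.26 and a depth of -0.06, -0.10 and -0.06 in the S2 maps and -0.21, -0.21, -0.28 and -0.23 in the embryo maps. Of 66 ribosomal protein genes, 3 (RpL17, RpL35 and RpS26) were at embryo-only and 7 (among them RpS7 and RpS28b) at S2-only bins, 4.55% and 10.6%, near the shares of all genes. Shared boundaries had 30 of the 66 (45.5%), against 26.5% of all genes at their embryo positions. The RpS7 boundary (chr3R:30200001-30210000) was deep in S2 cells, with 1.94, 1.91 and 1.83 in the S2 maps and 0.37, 0.20, 0.28 and 0.39 in embryos. The RpS28b boundary (chrX:9550001-9560000) had 1.57, 1.73 and 1.80 against 0.37, 0.28, 0.27 and 0.36. At both, all S2 maps exceeded all embryo maps by more than 1 log2 unit. The RpL23A boundary (chr3L:1660001-1670000) was shallower in S2 cells, with 0.37, 0.25 and 0.29 against -0.42, -0.19, -0.41 and -0.31. The RpL30 boundary (chr2L:19000001-19010000) had 0.86, 0.77 and 0.85 against 0.48, 0.22, 0.28 and 0.42, and neither HP1 dsRNA map called it. The one next to RpS10a (chr3R:27640001-27650000) had 0.21, 0.20 and 0.30 against 0.16, 0.10, 0.08 and 0.15, and RpS19b starts next to the Ndc1 bin given above. At these the S2 maps were above the embryo maps by less than at RpS7 and RpS28b.

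Member bins were rich in gene starts, less so than shared boundaries. A protein-coding gene started in 77.1% of embryo-only and 74.0% of S2-only bins, with means of 1.91 and 1.97 starts per bin, against 86.8% and 2.41 at shared boundaries (embryo positions) and 52.7% and 1.13 over all usable bins. Exons covered 42.4% of embryo-only and 42.4% of S2-only bins, 49.3% of shared and 29.5% of all bins. The M1BP motif GGTCACACT, of a factor at core promoters, was present in 18.1% of embryo-only, 17.3% of S2-only, 25.5% of shared (embryo positions) and 9.61% of all bins. Both sets thus lay between the shared boundaries and the genome at large in each of these, and differed little from each other.

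The CTCF motif AGNNGGCGC was present in 68.6% of embryo-only and 64.9% of S2-only bins (all bins 59.3%) and the Su(Hw) motif TGCATAC in 76.2% and 70.1% (all bins 73.0%). The short motifs of the GAGA factor (GAGAG) and of BEAF-32 (CGATA) occur in nearly every bin, so their number is given instead. GAGAG had 15.7 matches per embryo-only and 17.1 per S2-only bin (all bins 15.6), and CGATA had 14.0 and 14.4 (all bins 12.8, shared 15.6 at embryo positions). GATC sites, which set where DpnII cuts, numbered 32.4 per embryo-only and 31.3 per S2-only bin, 33.3 per shared and 27.3 per usable bin, and the part of this in the results was not tested.

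**Figure D5:**
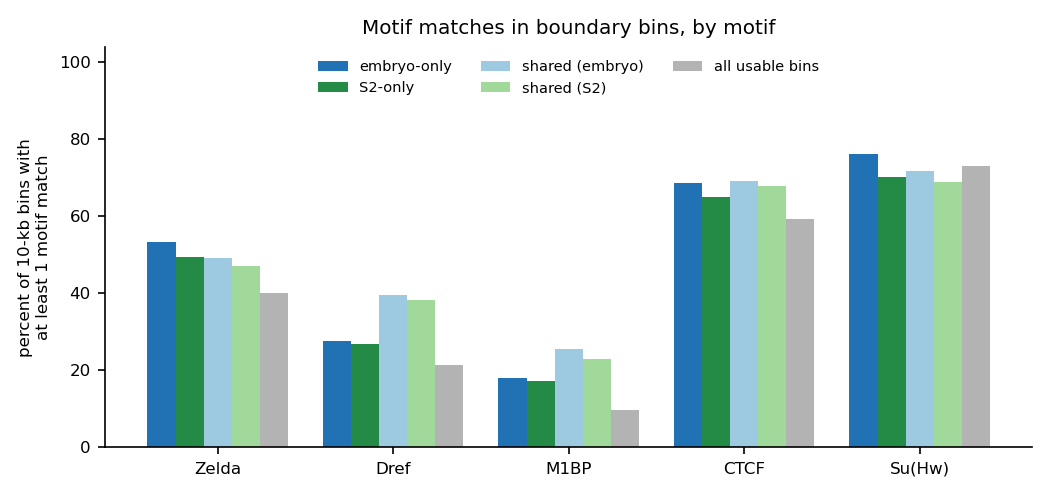
Percent of 10-kb bins with at least 1 match to the motifs of Zelda, Dref, M1BP, CTCF and Su(Hw) (y axis) in embryo-only and S2-only bins, in boundaries shared by both sources (at embryo and at S2 positions) and in all usable bins. Embryo-only bins have the highest share for Zelda (53.3%, against 47.1% to 49.4% in the other boundary groups), and both sets lie below the shared boundaries for Dref and M1BP.

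The rule sets a distance of at least 40 kb to the nearest boundary of the other control map, so distances are given beside those of bins that also lie beyond its window. The median was 60 kb for embryo-only members and 60 kb for such bins, and 60 kb for S2-only members and 70 kb for such bins. The distance was 40 or 50 kb at 52 embryo-only members (49.5%, against 39.9% of such bins) and 108 S2-only members (46.8%, against 34.9%). It was 100 kb or more at 23 (21.9%, against 17.3%) and 40 (17.3%, against 21.4%), and at most 190 and 210 kb. The members were thus near the distances of any bin beyond the window, with a larger share just outside it. For 63 of the 105 embryo-only members (60.0%) the nearest S2 control boundary was itself S2-only, against 30.9% of all S2 control boundaries. For 67 of the 231 S2-only members (29.0%) the nearest control embryo boundary was itself embryo-only, against 17.4% of all control embryo boundaries. By the rule, such a nearest boundary lies more than 30 kb from the member. The background of all boundaries does not carry this condition, so part of these differences can follow from the rule. The size of that part was not tested, and no matched background is given.

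Weaker minima in the other control map were more frequent near members than near such bins. Within 30 kb it had a minimum of prominence 0.1 or more at 55 embryo-only members (52.4%, against 16.9% of bins beyond the window) and 81 S2-only members (35.1%, against 14.9%). It had none of 0.02 or more at 28 (26.7%, against 61.9%) and 82 (35.5%, against 68.2%).

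Per Mb of usable sequence, embryo-only members numbered from 0.952 on 2L to 1.26 on 3R and S2-only members from 1.90 on 2L to 2.92 on 3L. They made up from 14.8% (X) to 19.6% (3R) of control embryo boundaries and from 26.8% (2L) to 36.8% (3L) of S2 control boundaries. S2-only members were the more numerous on every arm, and the S2 control map held the fewest contacts. With all maps thinned to equal numbers of contacts there were 116 embryo-only and 226 S2-only members. Median prominence was 0.49 for embryo-only and 0.50 for S2-only members.

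The members nearest the threshold had prominences of 0.207 (chr3R:16740001-16750000) and 0.214 (chrX:10200001-10210000, in Ypel) in embryos and of 0.201 (chr3R:21010001-21020000, at Rlip) and 0.203 (chr2L:5200001-5210000, at Cyp28d2) in S2 cells. The nearest minima outside it had 0.198 and 0.196 in embryos and 0.196 and 0.195 in S2 cells. The depths of these 4 members in the maps that chose them were -0.47, -0.48, -0.37 and -0.55. Depth in the choosing map was below 0 at 14 embryo-only and 36 S2-only members, where the bin was better connected across than its flanks 100 kb away. At the border of the 30-kb window, the CG3434 and pbl boundaries had an S2 control boundary at 40 kb, and the boundary at B52 and Hrb87F (chr3R:13660001-13670000), with one at 30 kb, counted as shared.

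Contacts per bin, in which copy number or mappability would show, stepped by a log2 value of 0.5 or more between the 100 kb before and after a member at 43.8% of embryo-only members in control and 50.5% in S2 control, against 46.5% and 52.3% of all bins. For S2-only members these were 51.5% and 55.0%. Members were thus close to any bin in this respect.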

How the data were processed

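Hi-C was performed on 23 libraries, and the authors pooled them into 1 contact map per group. The deposited values are a signal, contacts between 10-kb bins of dm6 that the authors had balanced by iterative correction so that bins have equal totals. The submitters' processing notes name HiC-Pro 2.11.1. By its name the HP1-KD map may lack some of its 5 libraries, and the group of the S2 control map was taken from the map's name.

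Whole contacts were recovered from the balanced values, of which 100% under 20 contacts came out whole within 0.02. They ranged from 24441214 to 220559641 per map on the 4 arm parts, which end at 22.2 Mb on 2L and 23.0 Mb on 3L and X and start at 4.2 Mb on 3R. Of 9607 bins, 9563 had contacts in all 7 maps, and a diamond needed 50% usable pairs. SEs of depth cover counting error only. Genes came from Ensembl release 115 and sequences from RefSeq, with equal arm lengths. The tools were pandas 2.3.3, scipy 1.17.1, numpy 2.4.6 and matplotlib 3.10.9 under Python 3.11.15. Recovery of boundaries was tested on simulated data.

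No test was made, as each group is 1 map. Named boundaries were the 6 of largest prominence per set, the 4 lowest and 3 highest embryo-only members in HP1-KD minus the mean of HP1-rescue and H3K9M, the 3 lowest and 3 highest S2-only members in S2 dsRNA 2 minus S2 dsRNA 1, those nearest the thresholds, and those at listed genes. The boundary at 1 listed gene is not reported here. Members, lists and rules were chosen with earlier results of these data known. Alternatives were other windows, prominences and diamonds, no balancing, equal depth, observed over expected contact, and leaving out sparse bins, each arm or members with a coverage step.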

Additional observations from a re-analysis of the deposited data

How the results depend on the processing

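No paired analysis was possible because each group is 1 pooled map with no replicate values. Each of 10 results was recomputed under 15 alternatives, of which leaving out members with a coverage step of 0.5 or more (log2) in a control map was chosen after seeing the data. A count was taken as moved beyond 1.5 times, a share beyond its 95% Wilson interval and a depth beyond 1 SD over the 4 arms. The cause of a move was not tested unless the alternative itself uses fewer members.

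There were 53 embryo-only and 123 S2-only members with a 50-kb window, and 44 and 89 without coverage steps. Leaving out each arm gave 70 to 84 and 164 to 189. HP1-KD stayed below HP1-rescue, H3K9M and control at embryo-only members in each alternative run. HP1-KD minus HP1-rescue was -0.119 with the 50-kb window, -0.0841 at prominence 0.1, -0.197 at prominence 0.3, -0.115 with a 50-kb diamond, -0.0449 without balancing, -0.114 at equal depth, -0.223 for observed over expected contact, -0.126 without the 10% sparsest bins and -0.100 without coverage steps. HP1-KD minus H3K9M was -0.0827 with the 50-kb window, -0.0700 at prominence 0.1, -0.196 at 0.3, -0.0186 without balancing, -0.231 for observed over expected contact and -0.0903 without coverage steps. HP1-KD minus control was -0.171, -0.125, -0.307, -0.0359, -0.395 and -0.171 in these settings. S2 dsRNA 2 minus S2 dsRNA 1 at S2-only members was 0.0283 with the 50-kb diamond and 0.0306 without balancing.

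The mean depth of both HP1 dsRNA maps at embryo-only members, 0.04, turned negative with the 50-kb window (-0.332), prominence 0.1 (-0.223), the 50-kb diamond (-0.132), no balancing (-0.197), no coverage steps (-0.0844) and without arm X (-0.0100, the other arms up to 0.114). It was 0.183 with a 20-kb window, 0.185 at prominence 0.3, 0.201 with a 200-kb diamond and 0.421 for observed over expected contact. The mean of the 3 other embryo maps at S2-only members, 0.06, was -0.137, -0.0100, -0.108, -0.0810 and -0.0301 in the first 5 of these settings and 0.129, 0.114, 0.114 and 0.154 in the last 4. HP1-KD called 73.6% of embryo-only members with the 50-kb diamond, 49.2% with the 200-kb diamond and 46.6% without the sparsest bins. S2 dsRNA 1 called 93.6% of S2-only members at prominence 0.1, 93.2% with the 50-kb diamond and 96.1% without balancing.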
